A study of Mus musculus with 12 samples.

Results

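Ion channel genes were taken from 3 deposited tables of genes that the authors kept as differentially expressed in C2C12 cells, a mouse myoblast line that proliferates in growth medium (GM) and fuses into myotubes in low-serum medium. The members were protein-coding rows whose symbols begin with Kcn, Scn, Clcn, Clic, Ano, Hcn, Trpa, Trpc, Trpm, Trpv or Piezo, followed by the letter or digit of the family member. In total, 51 of the 10289 listed genes were members. One of them, Trpc4ap, encodes a protein that associates with a TRP channel and is not itself a channel; it was kept because its symbol fits the rule.

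The RNA-seq part of the study had 4 groups of 2 libraries, all from stable C2C12 lines made with lentivirus and puromycin selection. GFP-overexpressing cells, the control, were sequenced at day 0 (GM) and at day 4 of differentiation (D4), and cells overexpressing mouse METTL3 or METTL14, the subunits of the m6A methyltransferase, at day 0. For the METTL14 libraries the time point field of the labels says day 4 while the titles say day 0, and the titles were followed. The tables compare D4 with GM in GFP cells (the D4 table), and METTL3 or METTL14 with GFP in GM (the METTL3 and METTL14 tables), so the GFP libraries in GM enter all 3 of them. Separate cultures for the 2 libraries of a group are not stated in the sources used here.

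Each table holds only genes at a false discovery rate of at most 0.05 in the authors' fit, and gives per gene 1 mean normalized count, averaged by the authors over libraries. The mean was the same wherever a gene was listed more than once (1746 genes, largest relative difference 4.77e-10), so it is a value pooled over the same libraries each time, with no error, and not a level in GM, at D4 or under METTL3 or METTL14. By the titles only the GFP D4 group was from day 4, so day 0 weighs more in a mean over all RNA-seq libraries. The order of genes by this mean can therefore differ from their order in GM or at D4. The other numeric columns are the authors' own fold changes, standard errors and p-values, and were not used. A listing therefore says here that a gene passed the authors' limit, with neither direction nor size, and no difference between groups was tested. The depth per library is not known from the files. In these bulk samples a change in the share of fused cells and a change in RNA per cell cannot be told apart.

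Ion channels are membrane proteins that let selected ions pass down their gradients. In skeletal muscle, potassium channels set the resting potential, sodium channels carry the action potential, and a chloride conductance stabilises the resting membrane. Potassium channels become active as myoblasts prepare to fuse, and mechanically gated channels of the Piezo family respond to membrane tension. Other members of the families described here, such as most Clcn proteins, work in endosomes and lysosomes rather than at the cell surface.

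The labelled cell type was checked against 8 myogenic genes, all of which were listed in at least 1 table. The authors' mean normalized count was 1845 for Myod1, 593 for Myf5, 2124 for Myog and 288 for Mef2c among the transcription factors, and 24157 for Des, 40372 for Myh3, 53546 for Acta1 and 3187 for Ckm among the muscle proteins. Mef2c was the lowest of them per kb, at 18.3, which is below the median of listed protein-coding genes. None of the 7 genes examined for other cell types, among them Pecam1 and Cdh5 for endothelium, Ptprc for blood cells, Epcam for epithelium, and Rbfox3 and Snap25 for neurons, was listed. An unlisted gene has no value here, so its level is not known.

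The pore of a potassium channel is recognisable in its coding sequence. Genes classed as pore-forming should hold it, so the search below describes the annotated sequences and tests nothing about the RNA of these cells. The selectivity filter, the narrow part of the pore that coordinates the ion, ends in a triplet of glycine, tyrosine and glycine, with phenylalanine in place of tyrosine in some channels. The in-frame codons GGNTACGGN and GGNTATGGN (tyrosine) and GGNTTCGGN and GGNTTTGGN (phenylalanine) were searched in the longest coding transcript of each gene in the GENCODE M21 annotation, on the coding strand. All 19 pore-forming potassium channel members held at least 1 such run, 14 of them with tyrosine and 8 with phenylalanine. Kcnj2, Kcnj12 and Kcnk5 held both forms and are in both counts. Such a run was held by 13.4% of all 21630 protein-coding genes with a coding transcript that starts with ATG. Both potassium auxiliary members, Kcnip4 and Kcnmb1, held none, and 6 of the 27 members of the remaining classes with such a transcript held one (22.2%), so a match alone does not mark a pore. Hcn2, whose pore is related to those of potassium channels, held the tyrosine form.

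The filters of 3 potassium members listed in a METTL table are given here because these genes recur in the results and differ in this stretch. Each run is written 5′ to 3′ on the coding strand, and capitals mark the 15 bases of the 5 filter codons.
Kcnj2: cagacaACCATTGGCTATGGTttcagg
Kcnf1: atgaccACAGTGGGCTATGGTgacatc
Kcnh2: ctcaccAGCGTGGGCTTTGGCaatgtc
The capitals lie on GRCm38 at chr11:111072207-111072221 (plus strand, exon 2) for Kcnj2, chr12:17175061-17175075 (minus strand, exon 1) for Kcnf1 and chr5:24325555-24325569 (minus strand, exon 7) for Kcnh2. Compared with Kcnj2, the cores of Kcnf1 and Kcnh2 matched at 12 and 10 of the 15 bases. Kcnh2 carried the phenylalanine form, as did Kcnh7. Kcnj2 also held a phenylalanine match near its start, at codon 29, which is not printed because the filter of this family is the tyrosine form, here at codon 144. Kcnj12 also held both matches in this order, with phenylalanine at codon 132 and tyrosine at codon 247.

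Tandem-pore-domain channels carry a pair of pore domains in 1 subunit, and 4 of the 5 listed genes of this class held 2 in-frame matches. The second filters of Kcnk5 and Kcnk2 are given to set beside the single filters above, with the same use of capitals.
Kcnk5: atctccACCATTGGCTTTGGGgacttt
Kcnk2: ctgacgACCATTGGATTTGGAgactac
They lie at chr14:20144648-20144662 (minus strand, exon 4) and chr1:189256581-189256595 (minus strand, exon 5) of GRCm38. In Kcnk5 the first match was the tyrosine form and the second the phenylalanine form, whereas in Kcnk2, Kcnk12 and Kcnk13 both were the phenylalanine form. Kcnk7 held 1 match, with tyrosine.

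To ask how many channel genes passed the authors' limit in each comparison, the listed members were counted against all annotated ones. GENCODE M21 has 160 protein-coding genes that fit the name patterns, of which 109 were in no table. The D4 table listed 51 (31.9%), beside 40.1% of all 21951 annotated protein-coding genes. The METTL3 table listed 12 (7.50%), beside 7.80%. The METTL14 table listed 9 (5.62%), beside 4.91%. The shares of channel genes in the METTL3 and METTL14 tables were thus near those of protein-coding genes in general, and the share in the D4 table was lower. An unlisted gene may be silent, too low to be tested or without a difference, and the files do not say which. Every member was in the D4 table. Of them, 37 were in that table alone, 7 in 2 tables and 7 in all 3, so that 27.5% were in more than 1 table, beside 18.5% of the 9245 listed protein-coding genes. As the comparisons share the GFP libraries in GM, nothing is read from these shares.

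**Figure D1:**
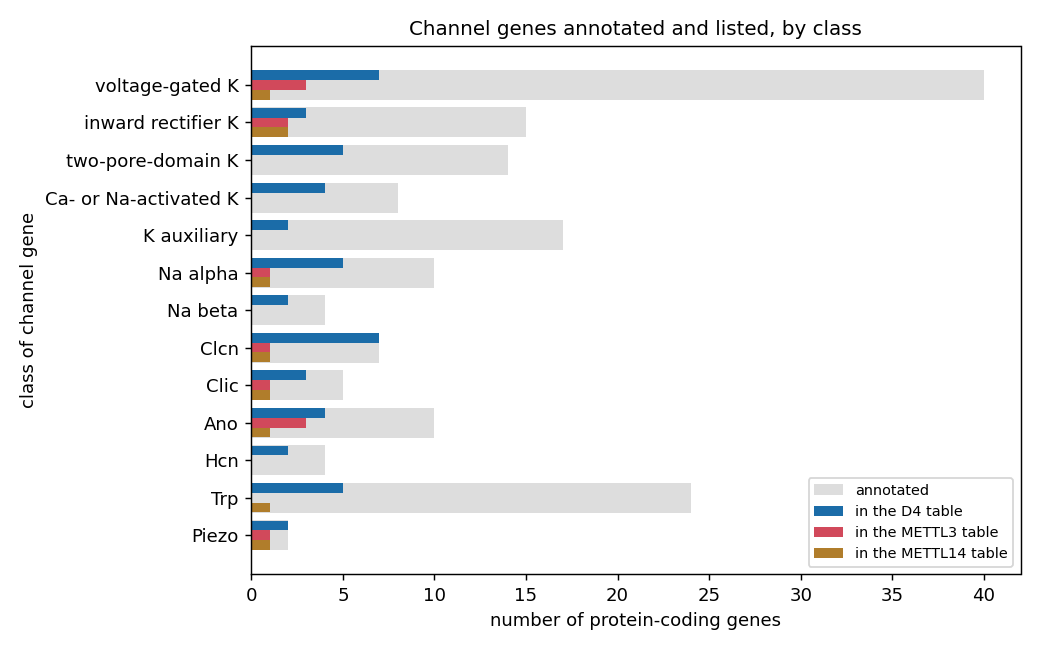
Number of protein-coding genes (horizontal axis) in each class of channel gene (vertical axis). Grey bars give the genes in the annotation and coloured bars those listed in the D4, METTL3 and METTL14 tables; all 7 Clcn and both Piezo genes were in the D4 table, while 7 of 40 voltage-gated potassium channel genes were.

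The classes differed in their share of genes in the D4 table, which is set here beside the 40.1% of all annotated protein-coding genes. All 7 Clcn genes and both Piezo genes were listed, as were 3 of 5 Clic genes, 4 of 8 calcium- or sodium-activated potassium channel genes, 5 of 10 sodium channel alpha subunit genes, 2 of 4 beta subunit genes and 2 of 4 Hcn genes. Near the share of all genes were the anoctamins (4 of 10, or 40.0%) and the tandem-pore-domain potassium channels (5 of 14, or 35.7%). Lower shares were found for TRP genes (5 of 24), inward rectifiers (3 of 15), voltage-gated potassium channels (7 of 40) and potassium auxiliary subunits (2 of 17). Among the potassium channel genes together, 21 of 94 were listed (22.3%).

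The 7 members in all 3 tables were Clic1, Clcn5, Ano8, Kcnj2, Kcnj16, Kcnh2 and Piezo2. Another 5 were in the D4 and METTL3 tables, among them Kcnf1, Ano5 and Ano1, and 2, Scn7a and Trpm4, were in the D4 and METTL14 tables. That a gene is in the METTL3 table and not in the METTL14 table does not show that its response differed between the lines, and this difference was not tested. No tandem-pore-domain, calcium- or sodium-activated or auxiliary potassium channel gene, sodium beta subunit gene or Hcn gene was in either METTL table. These classes have 14, 8, 17, 4 and 4 annotated genes, in that order. The METTL3 and METTL14 tables listed 7.80% and 4.91% of all annotated protein-coding genes, so nothing is read from these absences.

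Among the 51 members, the share in the METTL tables was higher for abundant genes. All members were in the D4 table, so its share was 100% at every level. The 109 channel genes in no table have no level, so these are not shares of all channel genes at a given abundance. Of the 24 members with an authors' mean normalized count under 100, 1 was in the METTL3 table (4.17%) and 0 were in the METTL14 table. Of the 17 with 100 to 1000, 6 (35.3%) and 5 (29.4%) were, and of the 10 with at least 1000, 5 (50.0%) and 4 (40.0%) were. The same shares over all protein-coding genes listed in any table were 14.1% and 9.56% under 100, 18.4% and 11.8% between 100 and 1000, and 21.3% and 12.6% from 1000. For the D4 table they were 92.0%, 95.4% and 96.5%. The 14 members in a METTL table had a median authors' mean normalized count of 458, and the lowest, Ano1, was at 90.6. The 37 members in the D4 table alone had a median of 43.5. These values are counts of small groups and carry no test. The part of abundance in the listing was not tested.

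Levels were compared between genes after division of the authors' mean normalized count by the exon length of the gene (the union of the exons of all transcripts), which gives a mean normalized count per kb. On this scale the members ran from 0.152 for Kcnh7 to 2830 for Clic1, with a median of 21.2. The 9245 protein-coding genes listed in any table had a median of 115. Of the 51 members, 12 were above that median, 4 were among the highest 25% of those genes and 32 (62.7%) among the lowest 25%. Because the pooled means have no error, neighbours in the order of levels cannot be told apart from ties. The pooled means also weigh day 0 more than day 4, so the order need not hold at either day.

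**Figure D2:**
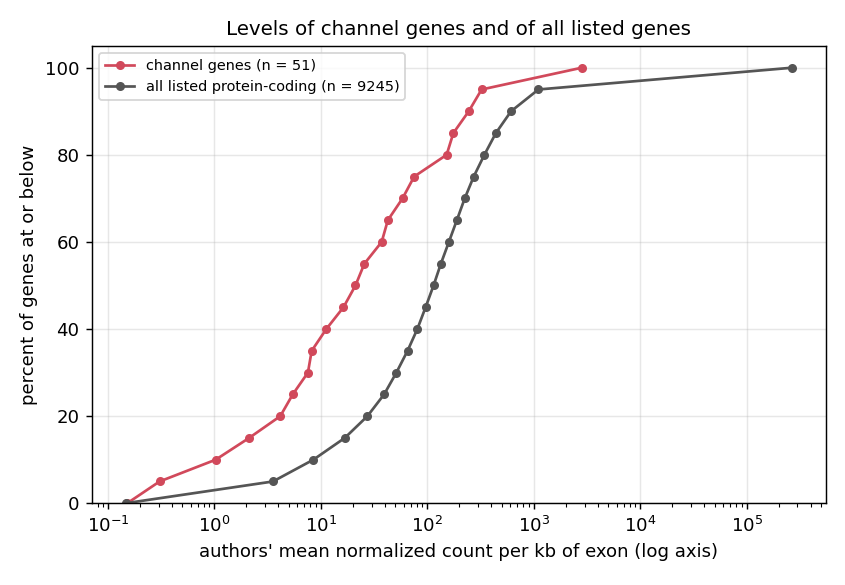
Cumulative distribution of the authors' mean normalized count per kb of exon (horizontal axis, log scale) as the percent of genes at or below each level (vertical axis), in steps of 5%. The median is 21.2 for the 51 channel genes and 115 for the 9245 listed protein-coding genes.

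**Figure D3:**
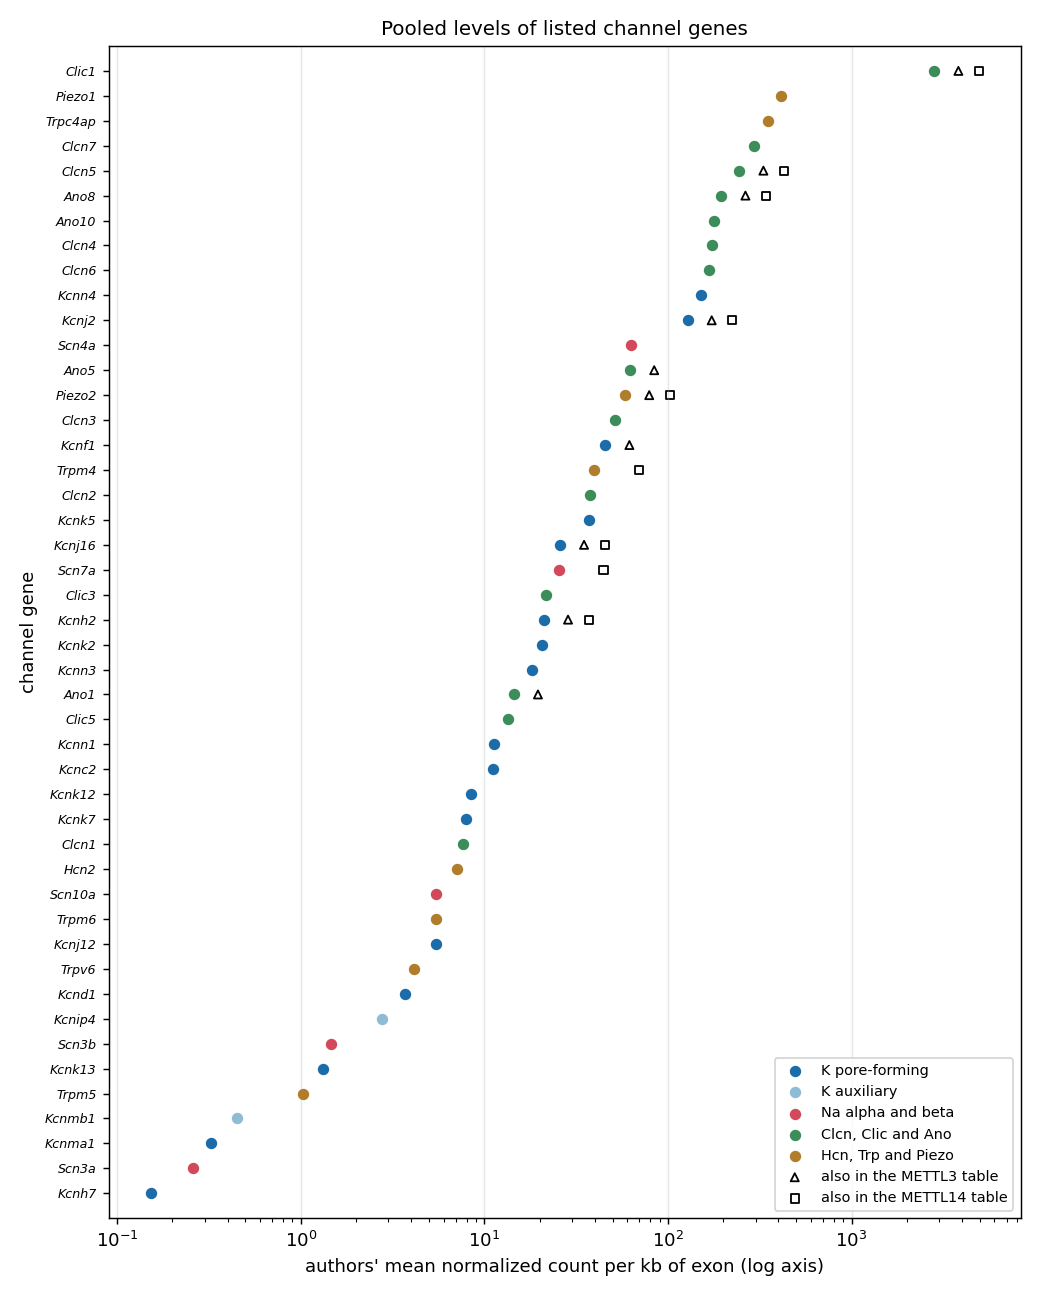
Pooled level of 46 of the 51 channel genes (vertical axis), as the authors' mean normalized count per kb of exon (horizontal axis, log scale), coloured by class. Open triangles and squares, set to the right of a point, mark genes also in the METTL3 or METTL14 table and carry no level; Clic1 stands at 2830, above Piezo1 at 412.

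Clic1 was the most abundant member. It encodes a chloride intracellular channel protein, which exists in soluble and membrane forms, and lies on chromosome 17 of GRCm38 (35049966 to 35058749, ENSMUSG00000007041). Its authors' mean normalized count was 5091 over 1799 exon bases. At 2830 per kb it was 6.87-fold above Piezo1 and made up 46.0% of the summed level per kb of all members. The size of this lead depends on the scaling, since Clic1 is a short gene. Its mean normalized count was 1.24-fold that of Piezo1 and 16.5% of the members' sum, and per kb of coding length it was 13.1-fold above Piezo1. The other listed Clic genes were far lower, with Clic3 at 21.8 per kb and Clic5, which links the membrane to the actin cytoskeleton, at 13.4 per kb.

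The chloride channel and exchanger genes of the Clcn family had a median level of 168 per kb and a range of 7.61 to 296 per kb. Clcn7, which encodes the lysosomal chloride-proton exchanger, was at 296 per kb (mean normalized count 1565), and Clcn5, its counterpart in early endosomes, at 245 per kb (2809). Clcn4 and Clcn6, both of endosomal compartments, were at 173 and 168 per kb, with a gene on the opposite strand over 11.5% of the exon bases of Clcn4, and Clcn3 was at 51.3 per kb. The plasma membrane channel gene Clcn2 was at 37.6 per kb. Clcn1, the chloride channel of the adult muscle fibre whose loss causes myotonia, was the lowest of the class at 7.61 per kb, with a pooled mean count of 41.3. Fam131b, on the opposite strand, covers 8.20% of its exon bases, and the strand setting of the counting is not given in the sources used here.

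Among the anoctamins, a family of calcium-activated chloride channels and lipid scramblases, Ano8 stood at 196 per kb and Ano10 at 178 per kb. Ano5, mutated in a form of limb-girdle muscular dystrophy, was at 62.4 per kb (mean normalized count 488). Ano1, the classical calcium-activated chloride channel, was at 14.5 per kb. Ano6 was in no table.

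Among the sodium channel alpha subunits, Scn4a, the form of adult skeletal muscle, had a pooled mean count of 444 and a level of 63.0 per kb (chromosome 11, 106318592 to 106353288). Scn7a, a sodium sensor, was at 25.5 per kb, whereas Scn10a of sensory neurons and Scn3a of the embryonic brain were at 5.46 and 0.258 per kb. Of the beta subunits, which adjust gating and surface delivery, Scn3b was at 1.46 per kb.

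The potassium channel genes were lower, with a median of 11.1 per kb over all 21. Kcnn4, the intermediate-conductance calcium-activated channel, led them at 152 per kb (mean normalized count 777). Kcnj2 followed at 128 per kb (698, chromosome 11, 111066164 to 111076821). It encodes an inward rectifier that holds the resting potential of muscle and is mutated in a periodic paralysis. Its neighbour Kcnj16, whose product forms channels with other inward rectifiers, was at 25.9 per kb. The 2 genes are 38.2 kb apart on the same strand with no protein-coding gene between them, and both were in all 3 tables. Kcnj12, a further inward rectifier of muscle, was at 5.43 per kb.

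Of the voltage-gated potassium channels, Kcnf1, a subunit that forms no channel alone and modifies others, was at 45.7 per kb (219). Kcnh2, best known for repolarising the heart, was at 21.2 per kb (103). Kcnc2, Kcnd1 and Kcnh7 lay between 0.152 and 11.1 per kb. The tandem-pore-domain channels, which carry background currents, were led by Kcnk5 at 37.3 per kb and by the mechanically sensitive Kcnk2 at 20.7 per kb, followed by Kcnk12, Kcnk7 and Kcnk13 at 8.51, 7.91 and 1.33 per kb. An antisense gene on the other strand covers 12.2% of the exon bases of Kcnk2. The small-conductance channels Kcnn3 and Kcnn1 were at 18.1 and 11.3 per kb. Kcnma1, the large-conductance channel, had a pooled mean count of 5.54 and a level of 0.326 per kb, and its beta subunit Kcnmb1 a pooled mean count of 1.87. A long non-coding gene on the opposite strand covers 5.98% of the exon bases of Kcnma1. Kcnip4, an auxiliary subunit of voltage-gated channels, was at 2.78 per kb.

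Piezo1 and Piezo2 encode the mechanically gated cation channels. Piezo1 was the second member by level, at 412 per kb (mean normalized count 4093, chromosome 8, 122481698 to 122551329). Ctu2, on the opposite strand, covers 24.6% of its exon bases and had an authors' mean normalized count of 353, and how shared reads were counted is not given in the sources used here. Piezo2, the channel of touch and proprioception, was at 58.6 per kb (1005) and, unlike Piezo1, was in all 3 tables. Trpc4ap was at 352 per kb (3081). The TRP channels proper were lower. Trpm4, a sodium- and potassium-permeable channel opened by calcium, was at 39.6 per kb (429), and Trpm6, Trpv6 and Trpm5 at 5.45, 4.16 and 1.03 per kb. Hcn2, a pacemaker channel, was at 7.11 per kb.

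The length used for scaling moved all of these levels, and for 42 of the 51 members the level per kb of coding length was over 1.5-fold that per kb of exon. Scaled by the coding length of the longest coding transcript, the level of Clic5 was 156 per kb, or 11.7-fold its value per kb of exon, and that of Clcn3 was 337 per kb, or 6.57-fold. For Hcn2 the ratio was 1.23. Clic1 was first under each length tried. Other ranks moved. Under the coding length Piezo1 had rank 8 in place of 2, and Clcn4 had rank 4 in place of 9. With the longest transcript as the length, Ano10 had rank 4 in place of 8.

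**Figure D4:**
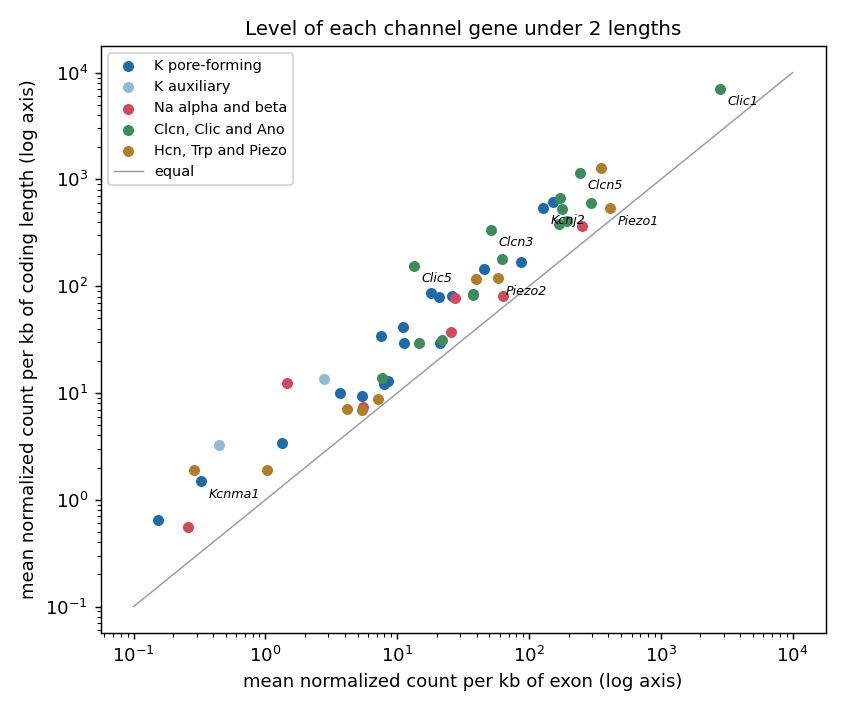
The authors' mean normalized count of each channel gene per kb of exon (horizontal axis) and per kb of coding length (vertical axis), both on log scales, with a line at equal values. Genes with long non-coding exon parts, such as Clic5 at 13.4 and 156, lie far above the line, and Piezo1, at 412 and 536, lies near it.

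Of 33 channel genes chosen for a known place in muscle or myoblasts, 18 were in the D4 table (54.5%), 7 in the METTL3 table (21.2%) and 4 in the METTL14 table (12.1%), beside 40.1%, 7.80% and 4.91% of all annotated protein-coding genes. The 15 in no table included Kcnh1, an early channel of myoblast fusion, Kcnj11 and Kcnj8, the pores of the ATP-sensitive channel, Kcnc4, Trpc1, Trpm7, Trpv2, Trpv4 and Clic4. In a list of 44 genes for pumps, carriers, partners and other channels, 34 were in the D4 table (77.3%), 6 in the METTL3 table (13.6%) and 4 in the METTL14 table (9.09%), beside the same shares of all genes. Both lists were picked by hand for genes with a known role, with earlier results of these data known. Their shares are therefore a description only. Atp1b1, which encodes a beta subunit of the sodium-potassium pump, was at 281 per kb, listed for METTL3 and METTL14 but not for D4. Tmem38a, a cation channel of the sarcoplasmic reticulum, was at 1036 per kb, the lysosomal channel gene Tpcn1 at 485 per kb and in all 3 tables, and Ostm1, the partner of the Clcn7 protein, at 128 per kb. The volume-regulated anion channel genes Lrrc8b, Lrrc8c, Lrrc8d and Lrrc8e were in the D4 table at 98.7, 68.8, 27.5 and 36.1 per kb. Lrrc8a, the remaining gene of this family in the list, was in no table. Abcc8 and Abcc9, which encode the regulatory subunits of the ATP-sensitive potassium channel, were at 1.49 and 0.411 per kb.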

How the data were processed

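RNA-seq of C2C12 cells in 4 groups of 2 libraries was used; the 4 MeRIP-seq libraries were not analysed here. Per the study's methods, hisat2 placed the reads on GRCm38, featureCounts summed them over Ensembl gene models, and DESeq2 gave the genes at an FDR of at most 0.05, which the authors deposited as 3 tables. The signal used is the mean normalized count deposited by the authors, 1 pooled value per gene. The deposited fold change, standard error, statistic, p-value and adjusted p-value columns hold the authors' own comparisons and were not used, so there are no tests here. Program versions are not given in the sources used here, and the labels also name HOMER and mm10.

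Gene positions, lengths and coding transcripts came from GENCODE M21 (GRCm38), a different release from the Ensembl one named for the counting, so lengths may differ from those of the counted gene models. In it all 51 members were found by identifier (7 of all 10289 listed genes were not found). Listed genes were counted per table and class, and levels divided by exon length. The genes named were the 10 highest members, the 3 highest of each of 13 classes, members in a METTL table and listed muscle channel genes; the others were named for completeness. Some genes that this rule names, and results that need them, are not reported here. Members, lists and rules were chosen with earlier results of these data known. The exon length and percentile steps were tested on simulated data. Alternatives for the listing were all gene types, minimum mean counts of 10 and 100, and another base for shares. Those for the level were the longest transcript as length, the coding length and no length scaling. Leaving out Trpc4ap was added after seeing the data. Python 3.11.15, pandas 2.3.3, NumPy 2.4.6, SciPy 1.17.1 and matplotlib 3.10.9 were used.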

Additional observations from a re-analysis of the deposited data

How the results depend on the processing

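The number of members listed was 51 for D4, 12 for METTL3 and 9 for METTL14. With every gene type it was 52, 12 and 9, at a minimum mean count of 10 it was 43, 12 and 9, and without Trpc4ap it was 50, 12 and 9. At a minimum of 100 it was 27, 11 and 9, so the D4 count moved by more than 1.5 times because low genes leave. Another base for the shares was the channel genes listed in any table instead of all annotated ones. The shares were then 100% for D4, 23.5% for METTL3 and 17.6% for METTL14, since this base holds only listed genes. Over all protein-coding genes listed in any table, the same shares were 95.2%, 18.5% and 11.7%. Of the 10 highest members by level, 9 were kept with the longest transcript as the length, 8 with the coding length and 9 with no length scaling. No paired analysis was possible because the tables hold no value per library, and for the same reason no replicate could be left out. A stricter limit on the authors' adjusted p-value was not tried, as that column was not used.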

Other observations

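One further gene whose symbol fits the name patterns is not protein-coding. Kcnq1ot1, an antisense transcript of the Kcnq1 locus with a known place in genomic imprinting (chromosome 7 of GRCm38, 143203458 to 143296549, minus strand), was in the D4 table with an authors' mean normalized count of 286, or 3.07 per kb over its 93092 exon bases. It was in neither METTL table, and Kcnq1 itself was in no table.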
